A study of Mus musculus with 12 samples.

Results

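The 7 genes described here, Eomes, Neurog2, Emx1, Sox1, Sox2, Sox9 and Pax6, encode transcription factors of the neurogenic lineage of the dentate gyrus. They were chosen by name from 10749 listed genes, with earlier results of these data known, and all 7 passed the filter on low reads that left 8362 genes for testing. The RNA came from dentate gyrus cells of LPA1-GFP mice, sorted by fluorescence and sequenced in 12 libraries. Stem libraries (n = 4) held LPA1-GFP+ cells that also carried EGFR and Prominin-1. Progenitor libraries (n = 4) held LPA1-GFP-positive cells that lacked EGFR, Prominin-1 or both. Niche libraries (n = 4) held LPA1-GFP-negative cells.

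All mice carried the same reporter, so no group was free of the transgene, and all were 8 weeks old. The reporter, listed as STOCK Tg(Lpar1-EGFP)GX193Gsat/Mmucd, came from a FVB/N-Swiss Webster background and was moved by IVF into C57BL/6. GFP stands for activity of the Lpar1 transgene, Lpar1 being the gene of a lysophosphatidic acid receptor. Each library was amplified from the RNA of 1000 cells. Nothing in the labels ties a replicate to 1 animal, to pooled animals or to separate sorts. The p-values therefore measure only the spread between these libraries, which may be technical in part.

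In the adult dentate gyrus, radial glia-like stem cells give rise to intermediate progenitors, then to neuroblasts and at last to granule neurons. Sox2, Sox9, Sox1 and Pax6 are known from the radial glia-like cells, and Sox2 and Sox9 also from mature astrocytes. Neurog2, a proneural helix-loop-helix factor, and Eomes (also called Tbr2), a T-box factor, mark the step from stem cell to intermediate progenitor, and Emx1 is a homeobox gene of the dorsal telencephalon.

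Library totals ran from 7597256 to 22854036 reads. Alpha-globin genes took at most 0.228% of the reads in stem and progenitor libraries, against 2.62% to 33% in niche libraries, and niche replicate 1 (33%) had the lowest scaling factor, 0.431. Genes of the mitochondrial genome took 9.94% to 12% of the reads in stem and 9.26% to 14.1% in progenitor, against 15.4% to 25.8% in niche libraries. The sort marker gene Egfr averaged 34.3 ± 6.52 TMM-scaled RPKM in stem, 5.67 ± 3.99 in progenitor and 8.32 ± 9.2 in niche libraries (SD, n = 4 each), so stem libraries were highest for the marker gene they were sorted on. Microglia and macrophage markers (8 genes) had a summed level on the same scale of 2530 to 9940 in stem libraries, against 129 to 292 in progenitor libraries, and of 3360 to 5780 in niche libraries. All 8 were called higher in stem than in progenitor, 2 were higher (Mrc1 and Adgre1) and 2 lower (Ctss and Trem2) in stem than in niche, and 7 were lower in progenitor than in niche. In these bulk samples, fewer cells of a type and less RNA per cell cannot be told apart.

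Levels are given as RPKM, the reads of a gene divided by its exon length in kilobases and by the library total, after scaling between libraries by trimmed means of M-values (TMM). Differences are log2 fold changes of TMM-scaled RPKM plus a pseudocount of 1, first group minus second, with their standard error (SE). They come from limma's empirical Bayes test over all 12 libraries, with p-values adjusted by the Benjamini-Hochberg method over the 8362 tested genes. A gene was called at an adjusted p under 0.05, and groups were said not to overlap when every library of one lay above every library of the other. The 3 comparisons share libraries and are not independent of each other.

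Against niche libraries, the 7 genes were mostly higher in the GFP-positive populations, apart from Sox2 in both and Sox9 in stem. In stem libraries 5 of 7 were called higher and none lower, where 21.8% of all tested genes were called in either direction and 11.3% higher. In progenitor libraries 6 of 7 were called higher and none lower, where 11.7% of tested genes were called and 6.08% higher. Between stem and progenitor libraries 1 of 7 was called, Emx1, lower in stem, where 7.29% of tested genes were called, 3.55% lower and 3.74% higher. The median log2 fold change of the 7 genes was 2.03 for stem against niche, 2.18 for progenitor against niche and -0.25 for stem against progenitor. The medians of all tested genes were 0.11, 0.18 and -0.06 in that order. Without progenitor replicate 1 and niche replicate 1 the members called were 5 in stem against niche, 5 in progenitor against niche and 1 in stem against progenitor. The calls over all genes were then 3003, 1982 and 1120, with the filter on low reads reapplied to the libraries left. With every library they were 1827, 982 and 610 of the 8362 tested genes. The part of the mitochondrial and globin shares of niche libraries in these differences was not tested.

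**Figure D1:**
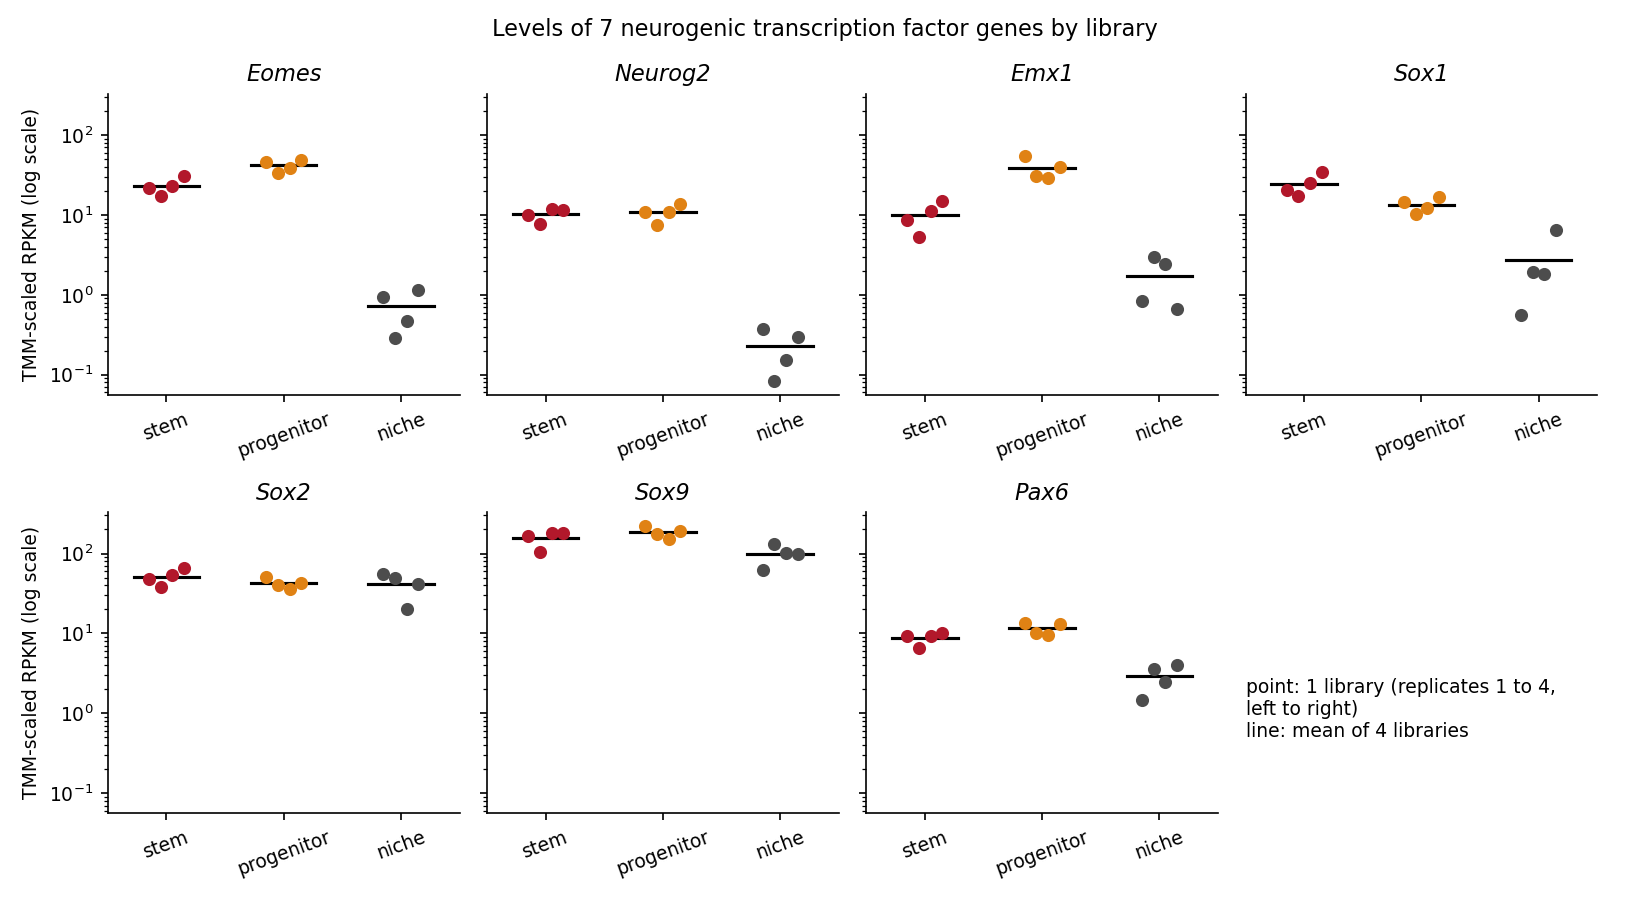
TMM-scaled RPKM (log axis) of the 7 genes in the 4 stem, 4 progenitor and 4 niche libraries; points are libraries and lines are means. Eomes and Neurog2 lay at 7.58 or more in every stem and progenitor library and at 1.16 or less in every niche library, whereas Sox2 overlapped between all 3 groups.

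Neurog2 was the member with the lowest level in niche libraries. It stood at 10, 7.69, 12 and 11.6 RPKM in stem replicates 1 to 4, at 10.8, 7.58, 11 and 13.7 in progenitor replicates, and at 0.376, 0.0829, 0.155 and 0.293 in niche replicates. The stem and progenitor values overlapped throughout, and both groups lay wholly above niche. The niche values rested on 3, 2, 3 and 3 reads, at or under the floor of 3 reads per library, so the fitted fold changes of 3.19 ± 0.40 (stem against niche, limma adjusted p = 3.78e-05) and 3.24 ± 0.40 (progenitor against niche, 7.01e-05) depend on the pseudocount. In summed reads over TMM-scaled library totals, Neurog2 was 58.9 times as high in stem as in niche (95% counting interval 32.7 to 118, from 835 and 11 reads) and 62.1 times as high in progenitor as in niche (34.6 to 125, from 1444 and 11 reads). Between stem and progenitor the log2 fold change was -0.05 ± 0.40 (limma adjusted p = 0.977).

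Eomes had the largest log2 fold change of the 7 against niche in both comparisons at the pseudocount of 1 RPKM. In stem against niche that order depends on the scale: Neurog2 exceeded Eomes at a pseudocount of 0.1 RPKM (5.07 and 4.95), with voom on recovered reads (5.56 and 5.25) and in the ratio of mean levels (45.5 and 32.3). Its levels were 21.7, 17.1, 23.3 and 30.9 RPKM in stem, 45.8, 33.6, 38.3 and 49.0 in progenitor, and 0.948, 0.291, 0.476 and 1.16 in niche libraries, from 13 to 22 reads each in niche. The order was progenitor, stem, niche, with no overlap between neighbours. The mean was 41.6 ± 7.01 in progenitor and 23.2 ± 5.77 in stem, against 0.719 ± 0.404 in niche libraries (SD, n = 4 each). The log2 fold change was 4.65 ± 0.39 for progenitor against niche (limma adjusted p = 3.83e-06), a size exceeded by 0.323% of tested genes, and 3.82 ± 0.39 for stem against niche (6.19e-06). Stem against progenitor gave -0.83 ± 0.39 and did not pass (limma adjusted p = 0.277), although the groups did not overlap. Of all tested genes, 24.8% did not overlap between stem and progenitor, 13.5% with stem lower.

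The windows of 250 bases before the transcription start are shown for these genes, which were both high in stem and progenitor and near 0 in niche, and for Sox2, which overlapped between all groups. They are from RefSeq, build GRCm38.p6, plus strand, 5′ to 3′, at chr9:118477939-118478188 (Eomes), chr3:127632886-127633135 (Neurog2) and chr3:34649745-34649994 (Sox2). Capitals mark TATATAA, searched on the gene's strand, and the SOX core motif AACAAT, searched on both strands (on the other strand it reads ATTGTT).
Eomes: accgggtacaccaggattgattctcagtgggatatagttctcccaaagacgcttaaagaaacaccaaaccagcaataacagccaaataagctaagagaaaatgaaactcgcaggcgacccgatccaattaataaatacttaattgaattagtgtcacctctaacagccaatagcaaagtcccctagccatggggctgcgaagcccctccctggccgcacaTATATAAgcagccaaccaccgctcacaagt
Neurog2: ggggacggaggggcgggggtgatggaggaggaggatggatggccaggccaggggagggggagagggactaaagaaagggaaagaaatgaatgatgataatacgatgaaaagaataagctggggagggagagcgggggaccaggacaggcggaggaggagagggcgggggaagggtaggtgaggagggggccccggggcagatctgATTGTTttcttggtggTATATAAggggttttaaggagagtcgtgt
Sox2: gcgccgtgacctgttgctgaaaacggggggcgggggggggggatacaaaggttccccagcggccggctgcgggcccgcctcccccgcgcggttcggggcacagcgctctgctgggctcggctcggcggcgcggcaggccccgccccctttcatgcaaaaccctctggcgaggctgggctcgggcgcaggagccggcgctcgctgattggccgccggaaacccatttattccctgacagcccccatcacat

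The TATA box motif began 30 bases before the RefSeq start of Eomes and 29 bases before that of Neurog2. It was in 2.05% of 32851 RefSeq promoter windows of the same length. The windows of Emx1, Sox1, Sox2 and Pax6 lacked it, although Emx1, Sox1 and Pax6 were also called higher than niche in stem and progenitor. The SOX core was in the Neurog2 window, 45 bases before the start, and in 9.42% of all windows. The E-box CANNTG, searched on both strands and recognised by helix-loop-helix factors, was in neither window, nor in that of Sox2, and in 66.2% of all. It was found for Emx1, 88 bases before the RefSeq start, and in the second of the Pax6 windows, 20 bases before. RefSeq and GENCODE starts differ: by GENCODE the Emx1 window (chr6:85187681-85187930) and the second Pax6 window (chr2:105682213-105682462) lie inside the gene. The Sox1 window (chr8:12395269-12395518) runs past the GENCODE start at 12395295. The Sox2 window ends at 34649994, before the GENCODE start at 34650405. TAATTA, a homeodomain core, was in none of the members' windows and in 4.84% of all. Windows were found for 6 of the 7 genes. The motifs were chosen after the sequences had been seen, and a match describes letters only.

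Emx1 was the gene that passed the test between stem and progenitor libraries. It stood at 8.52, 5.35, 11.1 and 14.8 RPKM in stem, at 54.8, 30.6, 29.1 and 39.3 in progenitor, and at 0.847, 2.99, 2.41 and 0.661 in niche libraries. The 3 groups did not overlap, in the order progenitor, stem, niche. Emx1 fell by 1.88 ± 0.46 on the log2 scale in stem against progenitor (limma adjusted p = 0.0191), with means of 9.93 ± 3.98 RPKM in stem and 38.4 ± 11.8 in progenitor libraries (SD, n = 4 each). It rose by 2.03 ± 0.46 in stem against niche (limma adjusted p = 0.00515) and by 3.91 ± 0.46 in progenitor against niche (5.32e-05). A difference of this size between stem and progenitor was exceeded by 6.48% of tested genes.

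The stem against progenitor call of Emx1 was lost without stem replicate 1 (limma adjusted p = 0.0624), stem replicate 2 (0.0792), progenitor replicate 1 (0.0627) or progenitor replicate 4 (0.0568), while the fold change stayed between -2.08 and -1.65 over all libraries left out in turn. Stem replicate 2, the lowest for Emx1, was also the library with the highest macrophage marker sum. Niche replicates 2 and 3, the highest niche libraries for Emx1 with 96 and 62 reads, against 9 in each of the others, had mature neuron marker sums (9 genes) of 502 and 1050, against 127 in niche replicate 1 and 726 in niche replicate 4. The part of these cell types in the Emx1 values was not tested.

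Sox1, a SOX B factor of neural stem and progenitor cells, and Sox2 were the members whose mean was highest in stem. Sox1 stood at 20.3, 17.3, 24.8 and 34.1 RPKM in stem, at 14.4, 10.4, 12.1 and 16.6 in progenitor, and at 0.566, 1.91, 1.81 and 6.52 in niche libraries. Every stem library lay above every progenitor library, and every progenitor library above every niche library. The stem against progenitor difference of 0.78 ± 0.48 did not pass (limma adjusted p = 0.477), and 11.3% of tested genes had stem wholly above progenitor. Against niche, Sox1 rose by 2.96 ± 0.48 in stem (limma adjusted p = 0.000402) and by 2.18 ± 0.48 in progenitor (0.00816). Niche replicate 4 held the highest niche level, from 177 of the 404 niche reads.

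Sox2, the SOX B factor that maintains neural stem cells, did not separate the populations. It stood at 47.4, 38.4, 53.2 and 65.3 RPKM in stem, at 50.7, 40.1, 35.9 and 42.8 in progenitor, and at 56.1, 49.8, 20 and 42.1 in niche libraries. All 3 groups overlapped, and niche replicate 3 was the lowest library. The log2 fold changes were 0.25 ± 0.34 for stem against progenitor, 0.35 ± 0.34 for stem against niche and 0.10 ± 0.34 for progenitor against niche, with limma adjusted p of 0.835, 0.504 and 0.888. The sign against niche was not stable: without niche replicate 3 the differences were -0.04 for stem and -0.32 for progenitor, median-of-ratios scaling gave -0.14 for progenitor, and scaling by library size alone gave 1 for stem (limma adjusted p = 0.0212). That scaling also moved the median of all tested genes in stem against niche to 0.58, against 0.11 with TMM.

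Sox9, a SOX E factor of radial glia and astrocytes, had the highest level of the 7 genes in every library, with 51.1% to 78.7% of their summed RPKM. Its levels were 166, 105, 182 and 180 RPKM in stem, 223, 176, 152 and 190 in progenitor, and 63.0, 130, 101 and 99.5 in niche libraries. Stem and progenitor overlapped, stem and niche overlapped through stem replicate 2 and niche replicate 2, and progenitor lay wholly above niche. The log2 fold change was 0.94 ± 0.29 for progenitor against niche (limma adjusted p = 0.0455), 0.69 ± 0.29 for stem against niche (0.098) and -0.25 ± 0.29 for stem against progenitor (0.792). The progenitor against niche call held in 6 of 21 alternative settings, with adjusted p up to 0.151. It was lost on leaving out any single library other than stem replicate 2 (limma adjusted p = 0.0396) or niche replicate 2 (0.0346), with values between 0.64 and 1.08. Without both progenitor replicate 1 and niche replicate 1 the difference was 0.56 (limma adjusted p = 0.0795).

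Astrocyte markers (8 genes) summed to 510 to 1090 in stem libraries, 3300 to 4770 in progenitor libraries and 4750 to 6370 in niche libraries, and 5 of 8 were called lower in stem than in progenitor (Aldoc, Gja1, Acsl6, Clu and Slc7a10), all 8 lower in stem than in niche and 4 lower in progenitor than in niche (S100b, Gja1, Slc4a4 and Slc7a10). Sox2 and Sox9, which astrocytes also express, were called lower in stem in neither comparison. The part of astrocyte RNA in their niche levels was not tested.

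Pax6, a paired-box factor of radial glia, was moderately higher in the GFP-positive populations. It stood at 9.29, 6.63, 9.36 and 10.2 RPKM in stem, at 13.5, 10.1, 9.67 and 13.1 in progenitor, and at 1.48, 3.58, 2.5 and 4.04 in niche libraries. Stem and progenitor overlapped, and both lay wholly above niche. The log2 fold change was 1.38 ± 0.41 for stem against niche (limma adjusted p = 0.025), 1.73 ± 0.41 for progenitor against niche (0.0123) and -0.36 ± 0.41 for stem against progenitor (0.787). The stem against niche call was lost without stem replicate 1, 3 or 4 and the progenitor against niche call without progenitor replicate 4, and both when only the 2 groups were fitted, with adjusted p up to 0.0798 and 0.0715 over all settings.

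**Figure D2:**
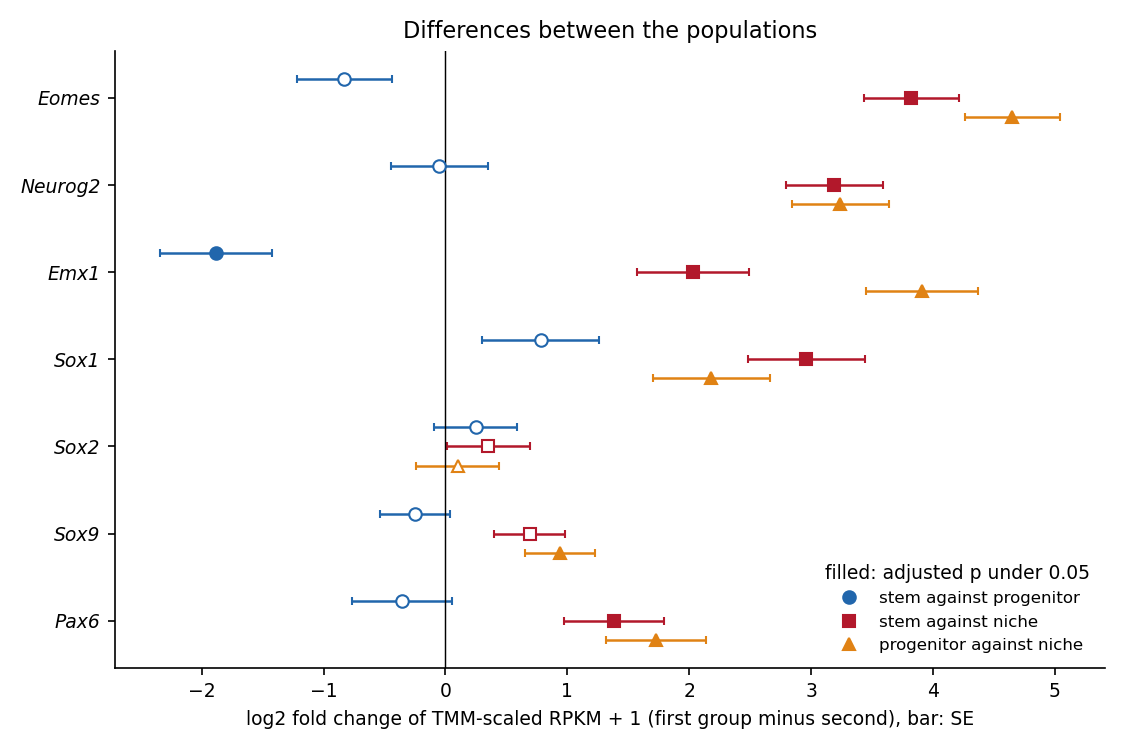
Log2 fold changes of TMM-scaled RPKM + 1 with SE for stem against progenitor, stem against niche and progenitor against niche; filled symbols passed limma at an adjusted p under 0.05. At this pseudocount Eomes had the largest fold changes against niche, 3.82 in stem, where Neurog2 was larger at 0.1 RPKM, and 4.65 in progenitor, and Emx1, at -1.88, was the member called between stem and progenitor.

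Counted by overlap, 5 of 7 genes were wholly higher in stem than in niche libraries, against 22.7% of tested genes that did not overlap and 12.6% wholly higher. For progenitor against niche these were 6 of 7, against 15.7% and 9.05%, with 6.67% wholly lower. Between stem and progenitor 3 of 7 did not overlap, against 24.8%, with Sox1 higher and Eomes and Emx1 lower in stem.

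Ratios between members within a library do not depend on scaling between libraries. Their size depends on the exon lengths of both genes, which are the same in every library. The pairs named here were chosen after their values were seen. Of the 21 pairs among the 7 genes, 17 had ratios that did not overlap between stem and progenitor, 15 between stem and niche and 15 between progenitor and niche. Over all pairs of the 7012 tested genes above 0 in every library, 27.7%, 25.6% and 17.8% did not overlap. The 21 pairs share 7 genes and are not independent.

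Eomes over Sox1, an intermediate progenitor gene over a stem cell gene, was 1.07, 0.983, 0.942 and 0.907 in stem, 3.18, 3.23, 3.15 and 2.95 in progenitor, and 1.67, 0.153, 0.262 and 0.178 in niche libraries. The spread within stem and progenitor was small, with a coefficient of variation of 7.12% and 3.83%, and the stem mean was 0.312 of the progenitor mean. In niche libraries replicate 1 stood above the other 3, from 14 Eomes and 12 Sox1 reads.

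Emx1 over Sox1 was 0.42, 0.309, 0.448 and 0.433 in stem and 3.81, 2.94, 2.39 and 2.37 in progenitor libraries, and the stem mean was 0.14 of the progenitor mean. In niche libraries this ratio was 1.5, 1.57, 1.33 and 0.101, overlapping with stem and wholly below progenitor. Niche replicate 4, the lowest, had 9 Emx1 and 177 Sox1 reads. Eomes over Neurog2 averaged 2.25 ± 0.306 in stem, 3.93 ± 0.474 in progenitor and 3.27 ± 0.617 in niche libraries (SD, n = 4 each). It was wholly lower in stem than in progenitor although the Neurog2 levels overlapped. The niche ratios rested on 2 to 3 Neurog2 and 13 to 22 Eomes reads per library and are limited by counting error. Sox9 over Pax6 averaged 17.7 ± 1.47 in stem, 16.0 ± 1.29 in progenitor and 36.0 ± 7.98 in niche libraries, overlapping between stem and progenitor and wholly lower in both than in niche.

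**Figure D3:**
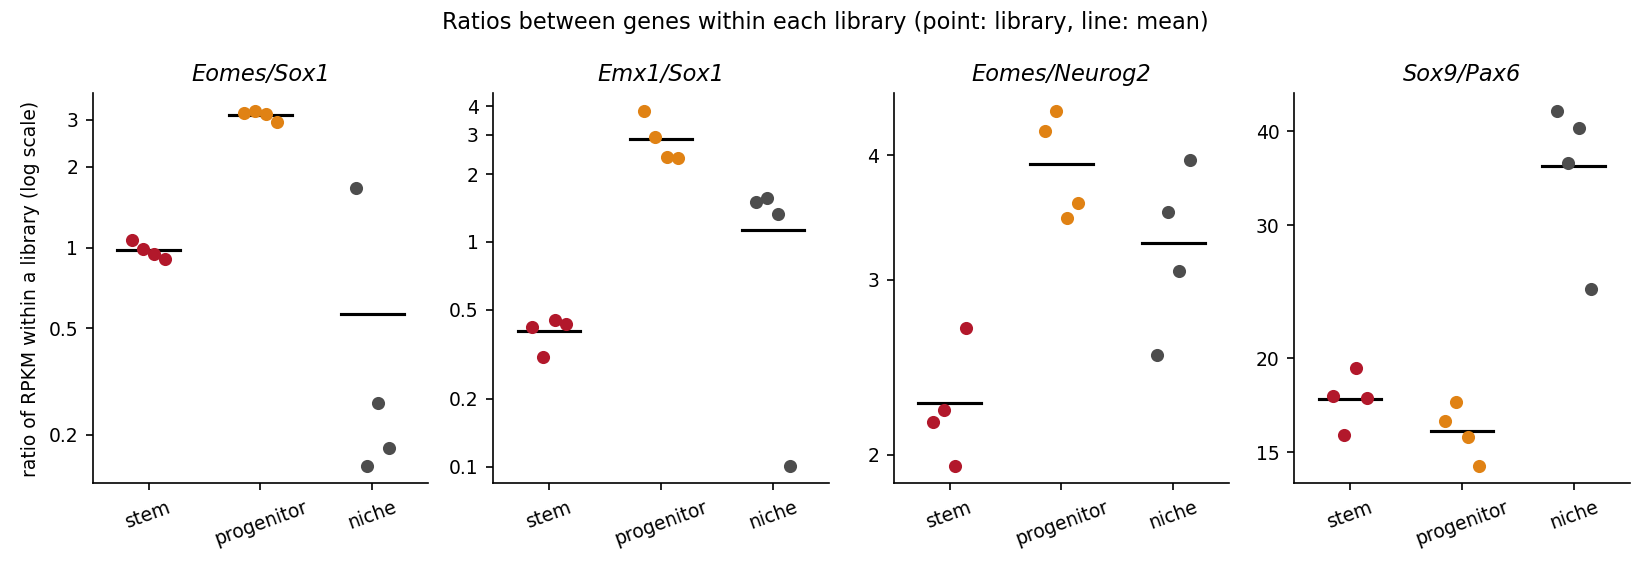
Ratio of RPKM of 2 genes within each library (log axes, a separate range for each pair) for stem, progenitor and niche; points are libraries and lines are means. Eomes over Sox1 lay between 0.907 and 1.07 in stem and between 2.95 and 3.23 in progenitor libraries, and Sox9 over Pax6 was lower in stem and progenitor than in niche.

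The order of the 7 genes within a library differed between groups below Sox9. In stem libraries Sox2 came second in all 4, followed by Eomes and Sox1 in either order, and Neurog2, Pax6 and Emx1 were the lowest 3. In progenitor libraries Emx1 and Eomes stood above Sox1 in all 4, with Sox2 second in replicate 2, Emx1 second in replicate 1 and Eomes second in replicates 3 and 4. In niche libraries Sox2 was second and Neurog2 last in all 4. Order between genes, unlike a comparison of groups, depends on the exon length behind the RPKM. That length was 2820 bases for Eomes (annotated 4155), 1524 for Neurog2 (2227) and 8634 for Pax6 (11694). It was 1973 for Sox2 (2057) and 4135 for Sox9 (4135). The order with annotated lengths was not computed, and the place of Eomes above Sox2 in progenitor replicates 3 and 4 may not hold. Together the 7 genes took 0.0791% to 0.151% of the reads of stem libraries, 0.125% to 0.157% of those of progenitor libraries and 0.0169% to 0.0561% of those of niche libraries.

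Within the stem group, replicate 2 had the lowest level of all 7 genes, replicate 4 the highest of 5 (Eomes, Emx1, Sox1, Sox2 and Pax6) and replicate 3 the highest of the other two. In replicate 2 the members stood at 0.539 (Emx1) to 0.752 (Sox2) of the mean of the 4 stem libraries. The macrophage marker sum was 9940 in stem replicate 2, against 2530 to 3810 in the other stem libraries, and the cell cycle sum (8 genes) was 784, against 1210 to 1270. Replicate 2 was also lowest of the stem libraries for the sums of radial glia (1270), immature neuron (1050) and astrocyte genes (510). The same held for proneural target (239) and dorsal telencephalon patterning genes (152). It was not lowest for oligodendrocyte lineage, endothelial, mural, choroid plexus and ependyma, red cell or SOX family sums. Low levels in replicate 2 were thus not particular to the 7 genes, and the share over all tested genes was not computed. The part of macrophage RNA in the lower levels of the members in replicate 2 was not tested. No member value was an outlier of its group of 4 by Dixon's test.

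**Figure D4:**
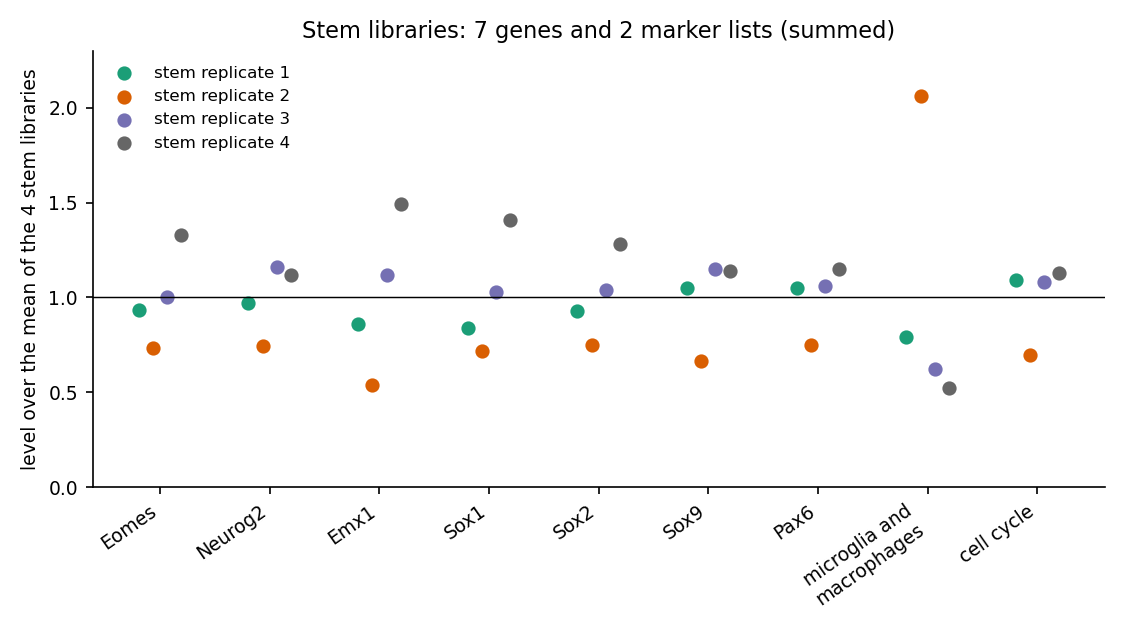
Level of each of the 7 genes, and of 2 summed marker lists, in each stem library over the mean of the 4 stem libraries. Replicate 2 was lowest for all 7 genes, between 0.539 and 0.752, and highest for microglia and macrophage markers, at 2.06.

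Other regulators of the lineage were read from lists chosen with earlier results known, and medians over a list are descriptive. Of 18 genes of the proneural cascade that acts with and after Neurog2 and Eomes, 3 were analysed here. Tbr1, the T-box factor that follows Eomes in cortical neurons, was called lower in stem (0.089 ± 0.103 RPKM) than in progenitor libraries (4.21 ± 0.937), with a log2 fold change of -2.25 ± 0.56 (limma adjusted p = 0.0208), and averaged 2.42 ± 3.25 in niche libraries. Myt1, a zinc finger factor of neuronal differentiation, averaged 2.29 ± 1.47 RPKM in stem, 5.42 ± 2.9 in progenitor and 1.14 ± 1.04 in niche libraries and passed in none of the 3 comparisons. St18, a related factor, averaged 0.305 ± 0.498 in stem, 2.32 ± 1.58 in progenitor and 3.21 ± 4.75 in niche libraries and did not pass either. The list median was -1.27 for stem against progenitor.

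Of 15 genes listed as targets of proneural factors, 7 were tested. In stem against progenitor 1 was higher and 3 lower (list median -0.83), in stem against niche 3 were higher and 1 lower (0.62), and in progenitor against niche 3 were higher and none lower (1.21). Mfap4, an extracellular matrix gene, averaged 69.3 ± 25.1 RPKM in stem, 121 ± 30 in progenitor and 8.75 ± 6.3 in niche libraries and rose against niche by 3.04 ± 0.45 in stem (limma adjusted p = 0.00019) and 3.87 ± 0.45 in progenitor (5.54e-05). Gadd45g was the other gene called higher in both populations, at 239 ± 49.9 RPKM in stem and 249 ± 104 in progenitor, against 39.3 ± 20.6 in niche libraries.

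The somatostatin receptor gene Sstr2 averaged 2.07 ± 1.39 RPKM in stem and 45.6 ± 28.7 in progenitor libraries and fell by 3.9 ± 0.59 on the log2 scale in stem (limma adjusted p = 0.000839). Against niche libraries (5.22 ± 3.68 RPKM) it rose by 2.94 ± 0.59 in progenitor (limma adjusted p = 0.00425). Rnd2 and Nhlh2 were the other genes called lower in stem than in progenitor, and the Notch ligand gene Dll4 was the 1 called higher, at 6.21 ± 1.42 RPKM in stem and 1.29 ± 0.905 in progenitor libraries. Rnd2 was also the 1 called lower in stem than in niche. Dll4 completed the 3 called higher there.

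Of 19 dorsal telencephalon patterning genes, 9 were tested: none was called between stem and progenitor (list median -0.36), 2 were higher in stem than in niche (0.96) and 3 higher in progenitor than in niche (1.12), with none lower. Zbtb20, a zinc finger factor of hippocampal identity, averaged 53.5 ± 12.5 RPKM in stem and 62.1 ± 25.7 in progenitor, against 17.4 ± 10.1 in niche libraries. The LIM homeobox gene Lhx2 averaged 50 ± 11.8 in stem and 63.4 ± 8.79 in progenitor, against 25.9 ± 9.3 in niche libraries. Both were called against niche in both populations, and Dmrt3 completed the 3 in progenitor.

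Of 15 ventral telencephalon genes, 4 were tested, and none was called between stem and progenitor. Olig1, a helix-loop-helix factor of the oligodendrocyte lineage, averaged 19.1 ± 4.72 RPKM in stem and 15.5 ± 8.83 in progenitor, against 64.9 ± 28.4 in niche libraries, and was called lower in both. Olig2 was called lower in progenitor against niche, at 5.42 ± 3.72 RPKM against 18.9 ± 8.32 in niche libraries. The difference between stem and progenitor in Olig2 was 1.26 ± 0.53 (limma adjusted p = 0.204). Of 16 other SOX genes, Sox15 was tested and was called in no comparison.

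Gliogenic and quiescence regulators held both directions. Of 19 listed, 10 were tested. In stem against progenitor none was higher and 2 were lower, Id3 and Id4 (list median -0.69). In stem against niche 2 were higher, Nfia and Zeb1, and 5 lower, Hes1, Id3, Id4, Klf9 and Bhlhe40 (-1.61). In progenitor against niche Nfia was higher, and Id3 and Bhlhe40 were lower (-0.33). Nfia, a nuclear factor I gene of glial competence, averaged 332 ± 56.2 RPKM in stem and 371 ± 44 in progenitor, against 101 ± 36.4 in niche libraries. Id3, an inhibitor of helix-loop-helix factors, averaged 31.4 ± 16.2 in stem and 126 ± 98.3 in progenitor, against 517 ± 310 in niche libraries.

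**Figure D5:**
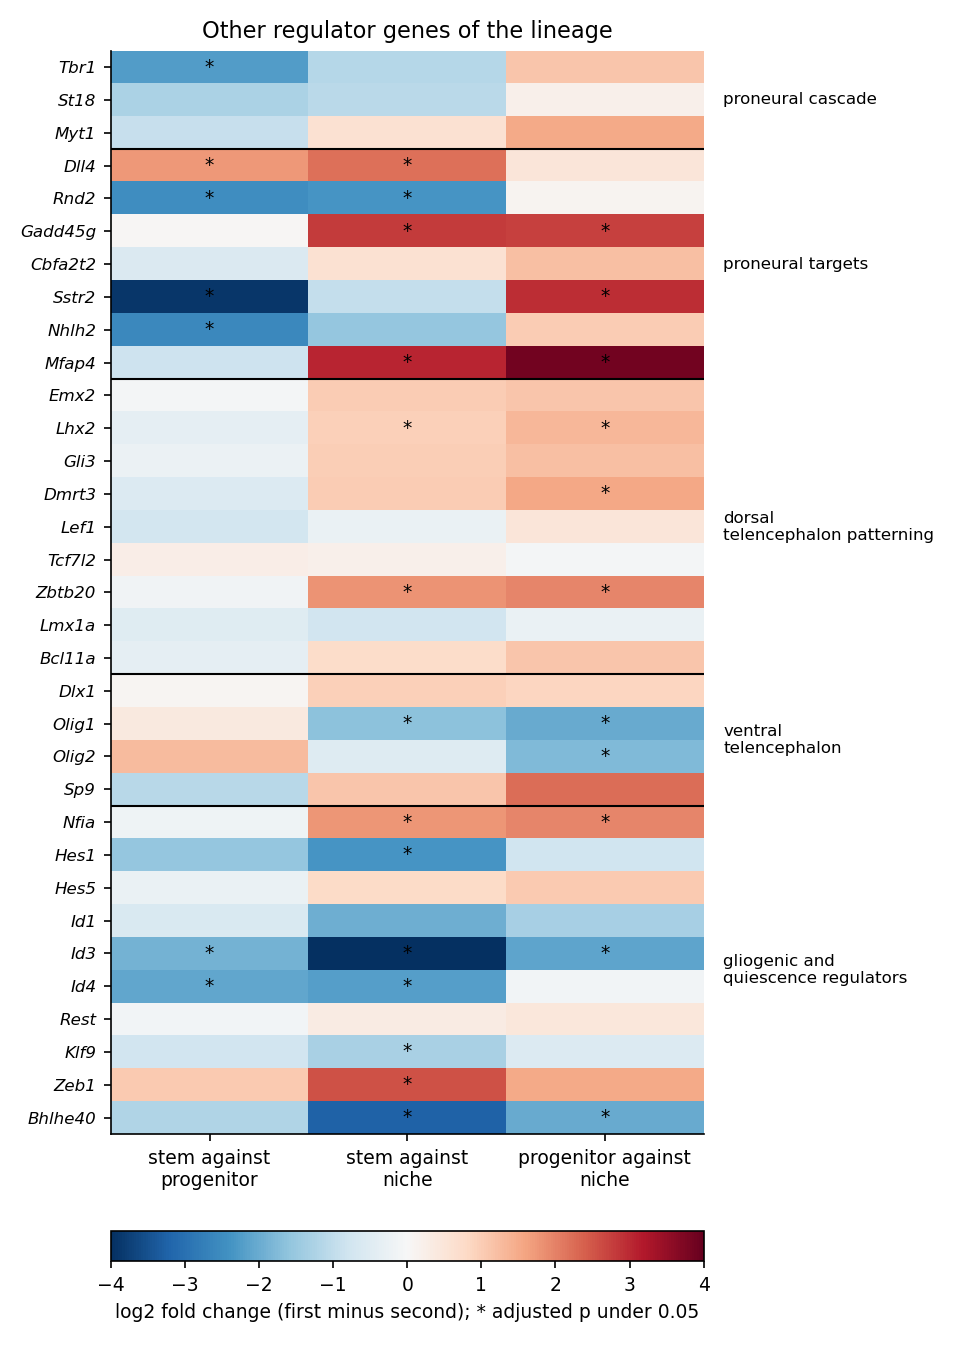
Log2 fold changes (colour, limited at -4 and 4) of the tested genes of 5 regulator lists in the 3 comparisons; stars mark limma adjusted p under 0.05. None of the 9 dorsal telencephalon genes was called between stem and progenitor, and Tbr1 (-2.25) and Id3 (-1.88) were called lower in stem.

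Markers of the stages on either side of these factors differed between stem and progenitor. Of 8 tested cell cycle genes, 7 were higher in stem than in progenitor, all 8 higher in stem than in niche and 7 higher in progenitor than in niche. The DNA replication genes Pclaf (140 ± 36 RPKM in stem, 49.1 ± 8.18 in progenitor, 1.91 ± 1.16 in niche) and Rrm2 (341 ± 89.7, 88 ± 34.5 and 7.45 ± 2.37 in the same order) led the list. Of 8 tested neuroblast and immature neuron genes, none was higher and 5 were lower in stem than in progenitor (Rnd2, Stmn2, Tubb3, Cd24a and Tac2). Dpysl5 was higher and Rnd2, Stmn2, Tubb3 and Cd24a were lower in stem than in niche, and Stmn1, Tubb3, Cd24a, Tac2 and Dpysl5 were higher in progenitor than in niche. Stmn2 averaged 2.42 ± 1.34 RPKM in stem, 234 ± 94.1 in progenitor and 100 ± 29.1 in niche libraries, and Tubb3 averaged 45.4 ± 19.9, 774 ± 387 and 125 ± 37.2 in the same order. Both encode proteins of the microtubule system of young neurons.

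Of 10 tested radial glia genes, 2 were higher (Cdk6 and Egfr) and 2 lower (Slc1a2 and Aldoc) in stem than in progenitor. In stem against niche Cdk6 and Egfr were higher, and Slc1a2, Aldoc and Glul were lower. In progenitor against niche Fabp7, Notch2 and Cdk6 were higher, and Glul was lower. Cdk6, a cell cycle kinase gene, averaged 220 ± 51 RPKM in stem and 82.7 ± 17.4 in progenitor, against 7.94 ± 3.37 in niche libraries, and Egfr is a gene of the sort. Aldoc, a glycolytic enzyme of radial glia and astrocytes, averaged 242 ± 77.8 in stem and 1620 ± 213 in progenitor, against 1420 ± 233 in niche libraries.

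Markers of other cell types also differed. Oligodendrocyte lineage genes (10) summed to 148 to 629 in the stem libraries, 2220 to 6170 in the progenitor libraries and 2770 to 5730 in the niche libraries, and mural cell genes (6) to 11.8 to 186, 680 to 1640 and 553 to 1810 in that order. Choroid plexus and ependyma genes (5) summed to 13.1 to 70.5, 106 to 498 and 4100 to 9140, endothelial genes (7) to 18.6 to 60.8, 67.1 to 115 and 208 to 1040, and mature neuron genes (9) to 43.9 to 80.6, 62.2 to 113 and 127 to 1050. Red cell genes (4) summed to 242 to 2090, 624 to 3420 and 37000 to 1050000. Clic6 of the choroid plexus was at 0 in every stem library.

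In stem against progenitor, 6 of 10 oligodendrocyte lineage and 4 of 6 mural genes (Rgs5, Pdgfrb, Higd1b and Vtn) were called lower. The same held for 3 of 5 choroid plexus and ependyma genes (Ttr, Ccdc153 and Sntn), 1 of 9 mature neuron (Snap25) and 1 of 7 endothelial (Esam). No red cell gene was called, and none of these lists had a gene called higher. In stem against niche, 10 of 10 oligodendrocyte lineage and 7 of 9 mature neuron genes were called lower. So were 5 of 6 mural (Cspg4, Rgs5, Higd1b, Vtn and Des), 2 of 5 choroid plexus and ependyma (Ttr and Kl), 5 of 7 endothelial (Cdh5, Cldn5, Slc2a1, Abcb1a and Esam) and 4 of 4 red cell genes (Hba-a1, Hba-a2, Alas2 and Bpgm). In progenitor against niche, 3 oligodendrocyte lineage (Pdgfra, Neu4 and Enpp6), no mural, 4 mature neuron (Snap25, Camk2a, Calb1 and Slc17a7), 2 choroid plexus and ependyma (Ttr and Kl), 4 endothelial (Cdh5, Cldn5, Slc2a1 and Abcb1a) and 3 red cell genes (Hba-a1, Hba-a2 and Alas2) were lower. The choroid plexus and ependyma genes Ccdc153 and Sntn were higher there. The genes with the smallest p over all groups were Neu4 and Car2 (oligodendrocyte lineage), Rgs5 and Vtn (mural), Ttr and Ccdc153, Slc2a1 and Esam (endothelial), Snap25 and Slc17a7 (neurons), Alas2 and Hba-a1 (red cells), S100b and Aldoc (astrocytes) and Ctss and Trem2 (macrophages). The transthyretin gene Ttr averaged 39 RPKM in stem and 222 in progenitor, against 7250 in niche libraries. The part of these cell types in the lower niche levels of the members, or in their differences between stem and progenitor, was not tested.

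The genes whose log2 profile over the 12 libraries, centred on its own mean, lay nearest to each member were found by root mean square (RMS) difference among the 8362 tested genes. For Eomes they were Ptx3 (0.39), Neurog2 (0.60) and Mfap2 (0.71), so another member was second nearest. For Neurog2 they were Siah3 (0.39), Gm16576 (0.40) and Odf2l (0.43), with Eomes in rank 23. For Emx1 they were Capn9 (0.51), 5033430I15Rik (0.58) and Mfap4 (0.60). For Sox1 they were Sass6 (0.35), Gm15964 (0.40) and Prickle3 (0.42).

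Sox2 lay nearest to Rpl29 (0.24), Eif3l (0.24) and Rpl7a (0.25), genes of the ribosome and of translation initiation. Sox9 lay nearest to Ppp1cc (0.20), the pseudogene Gm14416 (0.24) and Paip2 (0.24), and Pax6 to Prpf39 (0.21), Ccdc90b (0.27) and Smarcad1 (0.29), with Sox9 in rank 25. A gene that differs little between libraries lies near to many others by this measure, so its small values are not comparable with those of Eomes or Emx1. Ptx3, a pentraxin gene, averaged 17.5 RPKM in stem, 34.3 in progenitor and 0.657 in niche libraries.

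By the GENCODE annotation of GRCm38, the members lie at chr9:118478212-118486132 (Eomes, ENSMUSG00000032446), chr3:127633135-127635631 (Neurog2, ENSMUSG00000027967), chr6:85187438-85204462 (Emx1, ENSMUSG00000033726) and chr8:12395295-12400126 (Sox1, ENSMUSG00000096014). Sox2 (ENSMUSG00000074637) lies at chr3:34650405-34652461, Sox9 (ENSMUSG00000000567) at chr11:112782224-112787760 and Pax6 (ENSMUSG00000027168) at chr2:105668900-105697364. All are on the plus strand. Eomes shares 118 exon bases with the antisense gene Gm33460. The use of strand in counting is not given in the sources used here, so reads over these bases cannot be told apart. Sox1 shares 86 exon bases with the miRNA gene Gm25239, and overlaps Sox1ot on the same strand with no shared exon base, as Sox2 does Sox2ot.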

How the data were processed

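Sorted dentate gyrus cells of LPA1-GFP mice were measured in 12 libraries, 4 in each of 3 groups taken from the labels. The deposited table, per its values, holds log2(RPKM + 1). After the log was undone, 100% of values above 0 were whole reads within 1e-05 reads. The exon length was the annotated one for 1233 genes and was inferred from the values for 9277, for which wholeness is a weaker check. Recovered library totals were 7597256 to 22854036 reads, so the floor of 3 reads per library was 0.131 to 0.395 CPM. Intervals and floors cover counting error only, since amplified RNA was read with no molecular identifiers. Per the submitters' processing notes the build was GRCm38 (mm10), while the aligner, the counter or the choice of listed genes is not given in the sources used here. Symbols and positions matched 10579 of 10749 identifiers.

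The file name speaks of counts, but the values are on a log2 scale, so limma (3.58.1, R 4.3.3) was used, with trend and robust spread and 1 mean per group. Genes were kept with at least 10 reads per median library (0.767 CPM) in 4 libraries and 15 reads in all. TMM factors were computed on recovered reads, and the pseudocount was 1 RPKM. The code was tested on simulated reads for its calls of changed genes, not for the TMM factors themselves. The simulated libraries shared 1 profile apart from the changed genes, with no globin share as in niche replicate 1. No pair of replicates agreed within sampling noise (lowest chi-square over its degrees of freedom 38.9 for stem, 41.7 for progenitor, 118 for niche libraries). The members and the 17 other lists were chosen with earlier results of these data known. Of each other list, the 2 tested genes with the smallest overall adjusted p were named, plus genes that a count of 5 or fewer refers to, and for each member the 3 nearest profiles. Other scalings, pseudocounts, filters, fits, a replicate block, voom on recovered reads and leaving out libraries were tried. The edgeR quasi-likelihood test, planned for a count file, was not run. Lpar1 and Prom1 were not analysed here. Some genes are not reported here and are left out of the list counts.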

Additional observations from a re-analysis of the deposited data

How the results depend on the processing

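Each comparison was refitted under 21 alternatives, and no fold change that was called changed sign. Eomes, Neurog2, Emx1 and Sox1 were called against niche in all 21, in stem and in progenitor. Between stem and progenitor 1 member was called, against 0 with a pseudocount of 0.1 RPKM (Emx1 limma adjusted p = 0.0549), 2 when only the 2 groups were fitted (Eomes added, 0.0346) and 0 to 1 with a library left out. Stem against niche had 5 members called, 4 to 5 with a library left out, 4 with only the 2 groups (1245 of all 8362 genes) and 7 by library size alone (2603). Progenitor against niche had 6, 4 to 6 with a library left out and 4 with only the 2 groups (532 of all genes). Scaling by library size alone raised the share of called genes that were higher to 77.5% (stem) and 82.9% (progenitor) against niche, where TMM gave 51.5% and 51.7%.

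Counts over all genes moved more: stem against progenitor gave 610, 360 without stem replicate 2, 1095 without niche replicate 1, 1120 without it and progenitor replicate 1, and 1417 with only the 2 groups. Stem against niche gave 1827, and 3003 without progenitor replicate 1 and niche replicate 1. Progenitor against niche gave 982, 532 with only the 2 groups, 541 to 1642 with a library left out (565, 542 and 541 without progenitor replicates 2, 3 and 4, and 1642 without niche replicate 1), 1839 by library size alone and 1982 without both libraries. Where libraries were left out, the filter on low reads was reapplied, so the genes tested can differ. The causes were not tested. Correlations of same-numbered libraries were -0.13 to 0.07 between stem and progenitor, where differently numbered ones gave -0.09 to 0.14. Between stem and niche the same-numbered gave -0.09 to 0.04 and the others -0.08 to 0.08. Between progenitor and niche the same-numbered gave 0.03 to 0.21 and the others -0.19 to 0.13. Libraries correlated best with their own number in 1, 1 and 2 of 4. In no comparison did every pair exceed 0.1, so the numbers were not taken to pair the libraries, although all 4 were positive between progenitor and niche. With the replicate block 1, 5 and 5 members were called, Sox9 being lost in progenitor against niche (limma adjusted p = 0.07). Depth limits the niche values of Neurog2, with 2 to 3 reads per library. The count test with edgeR was not run, since the file holds no counts.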
